A study of Homo sapiens with 14 samples.

Results

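The comparison set 2 small RNA libraries of PANC-1 cells exposed to proanthocyanidins (PA) for 24 h against 2 libraries of the same line kept in the vehicle DMSO for 24 h. These 4 libraries were chosen by treatment and time from the 14 of the series, and every entry of the deposited count table was used: 2848 entries, of which 810 had enough counts to be tested. PANC-1 is an established line from a human pancreatic ductal carcinoma, here grown as monolayers in medium with fetal bovine serum. PA are oligomers and polymers of flavan-3-ols from grape, given at 20 µg/ml. The other 10 libraries are the DMSO controls taken at 0, 3 and 12 h and the PA exposures of 3 and 12 h, and every group has 2 libraries, lettered A and B. The libraries at 24 h are called DMSO-A, DMSO-B, PA-A and PA-B. The series speaks of a biological replicate, but the labels do not state separate cultures for A and B, so the p-values measure only the spread between libraries, which may be technical. All results are from 1 cell line and 1 dose.

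A miRNA is cut from a hairpin transcript, loaded into an Argonaute protein and guided to messenger RNAs by its seed, bases 2 to 8 of the mature strand, which lowers the stability and translation of the bound message. Each hairpin can give a strand from its 5′ arm (5p) and one from its 3′ arm (3p), and usually one of them is far more abundant. Several miRNAs are made from one transcript. In carcinoma cells the polycistron of MIR17HG is known as a target of MYC and E2F that favours proliferation, miR-27a as a repressor of FOXO1, the miR-99/100 family as a repressor of MTOR, and miR-7 as a repressor of EGFR.

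The mature sequences that the results turn on are shown here because the members that moved share seeds, a transcript or a length. They are from RefSeq (GRCh38.p14), which held 20 of the 22 named miRNAs that rose and 18 of the 18 that fell, and the capitals mark the seed. The first set fell. miR-17-5p (chr13:91350618-91350640), miR-18a-5p (chr13:91350756-91350778), miR-20a-5p (chr13:91351072-91351094) and a copy of miR-92a-3p (chr13:91351361-91351382) lie on the plus strand in an exon of MIR17HG. miR-93-5p (chr7:100093815-100093837) and miR-106b-5p (chr7:100094043-100094063) lie on the minus strand in an intron of MCM7, and miR-106a-5p (chrX:134170244-134170266) lies on the minus strand in an exon of the non-coding gene AC002407.1. The miR-106b-5p value did not pass, and its sequence is given because it carries the same seed.
miR-17-5p: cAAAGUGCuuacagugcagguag
miR-20a-5p: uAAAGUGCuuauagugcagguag
miR-93-5p: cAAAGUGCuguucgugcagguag
miR-106a-5p: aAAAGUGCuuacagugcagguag
miR-106b-5p: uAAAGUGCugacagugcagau
miR-18a-5p: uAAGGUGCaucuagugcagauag
miR-92a-3p: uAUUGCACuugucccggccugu

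The second set rose, apart from miR-27b-3p, which did not pass and is shown because it carries the seed of miR-27a-3p. miR-100-5p (chr11:122152275-122152296, minus strand) lies in an intron of MIR100HG, miR-99a-5p (chr21:16539101-16539122, plus strand) in an intron of MIR99AHG and miR-99b-5p (chr19:51692618-51692639, plus strand) in an intron of SPACA6. miR-27a-3p (chr19:13836447-13836467) and miR-27a-5p (chr19:13836487-13836508) lie on the minus strand in an exon of the non-coding gene AC020916.1, and miR-27b-3p (chr9:95085505-95085525, plus strand) lies in an intron of C9orf3.
miR-100-5p: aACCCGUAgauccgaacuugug
miR-99a-5p: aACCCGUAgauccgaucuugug
miR-99b-5p: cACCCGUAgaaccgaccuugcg
miR-27a-3p: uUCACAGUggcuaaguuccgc
miR-27b-3p: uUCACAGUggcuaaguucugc
miR-27a-5p: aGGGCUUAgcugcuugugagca

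The third set holds members of the imprinted cluster at 14q32, on the plus strand of chromosome 14, of which the first 3 fell and miR-380-5p rose. They are miR-154-3p (chr14:101059805-101059826), miR-376a-3p (a copy at chr14:101040825-101040845), miR-376b-3p (chr14:101040497-101040518) and miR-380-5p (chr14:101025021-101025042, in an intron of MEG8).
miR-154-3p: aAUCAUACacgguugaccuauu
miR-376a-3p: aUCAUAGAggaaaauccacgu
miR-376b-3p: aUCAUAGAggaaaauccauguu
miR-380-5p: uGGUUGACcauagaacaugcgc

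In the fourth set, miR-7-5p (copies at chr9:83969811-83969834, minus strand, in an exon of HNRNPK, and chr19:4770700-4770723) and miR-3529-3p (chr15:88611856-88611879, minus strand) both fell. All 24 bases of miR-7-5p match the reverse complement of miR-3529-3p, so a read counted without regard to strand could belong to either, and the use of strand is not given in the sources used here.
miR-7-5p: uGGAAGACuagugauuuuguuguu
miR-3529-3p: aACAACAAaaucacuagucuucca

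The last set shows rises and 1 fall of scarcer entries. miR-7704 (chr2:176188843-176188861, plus strand) lies in an exon of HOXD1, with an exon of HAGLR on the other strand. miR-3182 (chr16:83508349-83508365, plus strand, in an intron of CDH13), miR-4310 (chr15:41866505-41866520, minus strand, in an intron of SPTBN5) and miR-4443 (chr3:48196572-48196588, plus strand) rose, and miR-4455 (chr4:184938421-184938437, minus strand) fell. These last 4 have mature sequences of at most 17 bases, and 12 of the 597 tested miRNAs with a sequence were that short.
miR-7704: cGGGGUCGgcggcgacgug
miR-3182: gCUUCUGUaguguaguc
miR-4310: gCAGCAUUcauguccc
miR-4443: uUGGAGGCguggguuuu
miR-4455: aGGGUGUGuguguuuuu

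The deposited table gives read counts, with totals of 2302554 and 2230573 in DMSO-A and DMSO-B and 2816062 and 1236935 in PA-A and PA-B, against a range of 1032391 to 3111014 over all 14 libraries. Levels are given as CPM, the unit of edgeR that divides counts by the library total, here after TMM scaling, which corrects for composition. PA-A had the smallest TMM factor of all 14 libraries, 0.886, and PA-B had 0.962, with 1.06 and 1.03 for DMSO-A and DMSO-B. Spearman correlations over the tested entries were 0.968 between the DMSO 24 h libraries and 0.947 between the PA 24 h libraries, and neither pair agreed within counting error (chi-square per degree of freedom 23.3 and 36.6). In bulk RNA, fewer cells of a type and less RNA per cell cannot be told apart. Haematopoietic markers summed to 1.64 to 3.21 CPM over the 4 libraries with miR-150-5p at 0 in all of them, muscle, liver and neuron markers to 2.60 to 7.22 CPM, and acinar and islet markers to 2.17 to 9.25 CPM with miR-216a-5p at 0. Fibroblast and endothelial markers summed to 1375 and 1362 CPM with DMSO and 1304 and 1180 CPM with PA, most of it miR-126-3p and miR-126-5p. Within that list miR-143-3p, a miRNA of fibroblasts and smooth muscle, had 231 counts in DMSO-A against 14, 39 and 19 in DMSO-B, PA-A and PA-B. DMSO-A also held the most counts of miR-145-5p (31 against 0, 6 and 3), miR-199a-5p (113 against 3, 21 and 8) and miR-199a-3p (62 against 12, 11 and 3). The list's median log2 fold change was -1.36, with 6 of 7 tested members negative. Of the 7 tested members 0 passed (edgeR, with 1 at an unadjusted p under 0.05 and 0 by DESeq2 and by limma), and the part of these RNAs in the results was not tested. The red blood cell list summed to 380.0 and 397 CPM with DMSO and 554 and 503 CPM with PA, while its defining miR-451a had 2, 0, 4 and 0 counts. The miR-200 family, which marks epithelial cells, was low, at 65.9 to 85.8 CPM in sum.

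Of the 810 entries tested, 54 passed (6.67%): 35 rose with PA (4.32%) and 19 fell (2.35%), by edgeR's quasi-likelihood test with Benjamini-Hochberg adjustment at 0.05. At an unadjusted p under 0.05 there were 169. The libraries of the 2 groups did not overlap for 207 entries that were higher with PA (25.6%) and 215 that were lower (26.5%), and for all 54 that passed. The rises reached larger folds at lower levels than the falls. Of the 35 that rose, 20 had a mean level under 100 CPM and the median log2 fold change was 2.32, while the 19 falls had a median size of 0.98 and lay between 23.8 and 4020 CPM. Among the 19 entries of at least 10000 CPM, 3 rose: miR-100-5p, miR-27a-3p and miR-99b-5p. Of 128 tested entries without a miRNA name, 13 rose and 1 fell, against 22 and 18 of 682 named miRNAs. The 13 include chr4_10821 and KI270790.1_41873, which had the same counts in every library and stand for 1 measurement. They count as 2 entries in the 13, the 35 and the 54. With counts scaled to the library totals alone, the median over all entries of the log2 fold change moved from -0.01 to -0.19 and the calls became 29 higher and 46 lower. There were 11 calls with DMSO-A dropped (10 of the 54 among them), 13 with DMSO-B dropped (13), 69 with PA-A dropped (40) and 28 with PA-B dropped (23), and 0 of the 19 falls passed when either DMSO library was dropped (adjusted p 0.056 to 0.326).

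**Figure D1:**
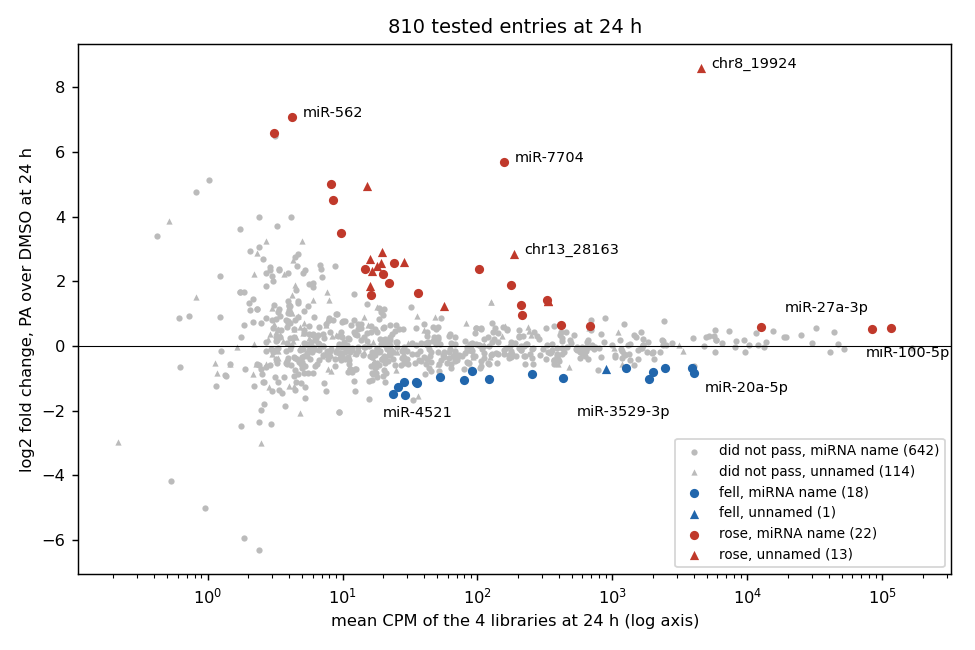
Each point is 1 of the 810 tested entries, with its mean CPM over the 4 libraries at 24 h on a log x axis and its log2 fold change of PA over DMSO on the y axis. Red points rose, blue points fell, grey points did not pass and triangles are entries without a miRNA name. The largest rises lie at low levels, apart from chr8_19924 at 8.60, and all 19 falls lie between -1.53 and -0.67.

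The miR-17-92 polycistron of MIR17HG and its paralogs held the most falls of any list, with 6 of 18 tested members lower and 0 higher, against 2.35% of all entries. Their median log2 fold change was -0.70, against -0.01 over all entries, and 17 of the 18 were lower in both PA libraries than in both DMSO libraries, as were 26.5% of all entries. Summed over the list, levels were 25711 and 26146 CPM with DMSO and 19515 and 13448 CPM with PA, and the last was the lowest of all 14 libraries. miR-20a-5p, the most abundant member, was at 5186 and 5146 CPM in DMSO-A and DMSO-B and at 3527 and 2222 CPM in PA-A and PA-B. The DMSO libraries were close together and PA-B lay well below PA-A, with no overlap between the groups. Its log2 fold change was -0.84 ± 0.21 (SE, edgeR adjusted p = 0.0229).

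miR-17-5p, which represses the cell cycle inhibitor CDKN1A and shares a seed with miR-20a-5p, went from 2582 and 2516 to 1657 and 1265 CPM, with a log2 fold change of -0.80 ± 0.19 (edgeR adjusted p = 0.0158). miR-18a-5p went from 330.4 and 330.2 to 192 and 166 CPM (-0.88 ± 0.18, adjusted p = 0.0091). For these as for miR-20a-5p, PA-B was the lowest library. The other arm of each hairpin was lower too but did not pass, at -0.19 for miR-17-3p, -0.72 for miR-18a-3p and -0.76 for miR-20a-3p. miR-92a-3p, the member with another seed at the end of the polycistron and a second copy on chromosome X, went from 3010.4 and 3074 to 1745 and 2028 CPM (-0.69 ± 0.18, adjusted p = 0.0247). Here PA-A was the lower of the PA libraries, and both lay below all 8 DMSO libraries of the series.

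miR-19a-3p and miR-19b-3p, which lie in the same exon, did not pass. miR-19b-3p was at 4855 and 4861 CPM with DMSO and 4632 and 1661 CPM with PA (-0.63 ± 0.34, adjusted p = 0.32), so PA-A differed little from the controls and PA-B stood apart. miR-19a-3p showed the same split, at 1034 and 921 against 891 and 279 CPM (-0.73 ± 0.39, adjusted p = 0.299). Outside MIR17HG, miR-93-5p went from 4512 and 5084 to 3310.5 and 2673 CPM (-0.68 ± 0.19, adjusted p = 0.0351) and miR-106a-5p from 73.0 and 67.2 to 41.7 and 28.6 CPM (-0.97 ± 0.26, adjusted p = 0.0339). Their groups did not overlap. The printed sequences of miR-106a-5p and miR-17-5p differ only at the first base. miR-106a-5p had 178 and 155 counts with DMSO and 104 and 34 with PA. miR-17-5p had 6297 and 5807 with DMSO and 4133 and 1505 with PA. Whether miR-17-5p reads were counted as miR-106a-5p was not tested, so the latter is uncertain as a separate fall. miR-106b-5p (-0.23, adjusted p = 0.515) and miR-25-3p (-0.40, adjusted p = 0.138), from the same MCM7 intron as miR-93, did not pass. miR-25-5p, at 6.97 and 4.33 CPM with DMSO and 8.02 and 10.9 CPM with PA, was the 1 member with a positive value (0.70, adjusted p = 0.55). The lowest value, -2.35, was that of miR-363-3p, with 12 and 8 counts against 3 and 0 (adjusted p = 0.338). All 6 calls were lost when DMSO-A (adjusted p 0.073 to 0.208), DMSO-B (0.065 to 0.25) or PA-B (0.0608 to 0.266) was dropped, and 5 of 6 passed when PA-A was. The 6 log2 fold changes were negative in each of these fits, at -0.79 to -0.53 with PA-B dropped. That of miR-20a-5p was -1.31 with PA-A dropped and -0.54 with PA-B dropped.

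**Figure D2:**
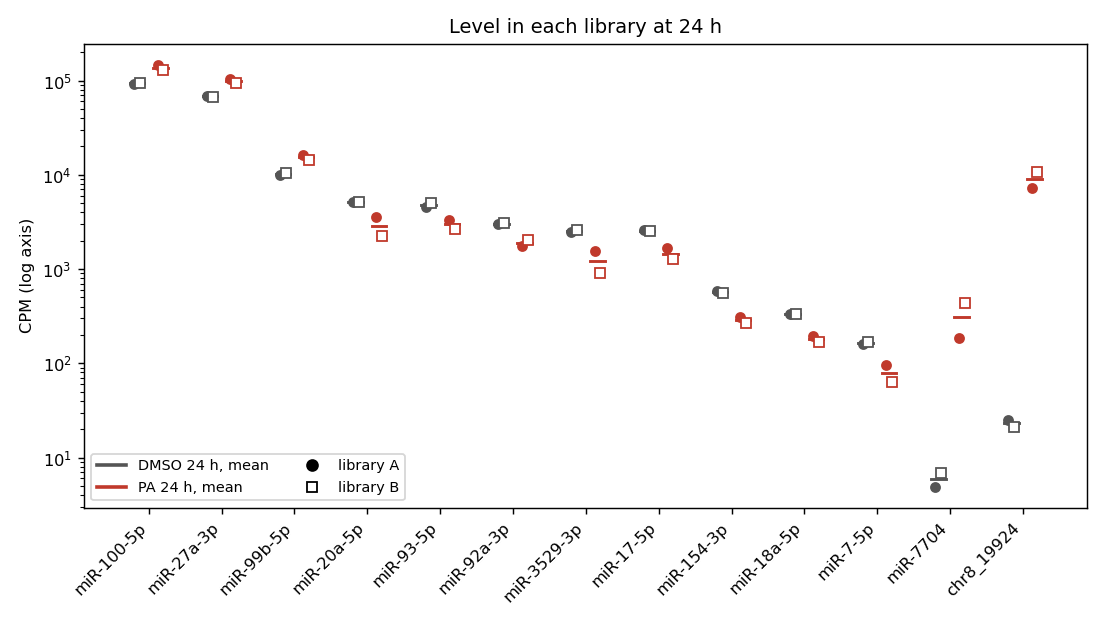
CPM on a log axis of 13 entries in the 4 libraries at 24 h, with filled circles for library A, open squares for library B and a bar for the mean of each group (grey DMSO, red PA). The PA libraries of the 3 abundant miRNAs on the left lie above both DMSO libraries, and the PA libraries of the 8 miRNAs from miR-20a-5p to miR-7-5p lie below them. miR-7704 and chr8_19924 on the right show the widest gap between the groups.

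miR-7-5p was at 159 and 167 CPM with DMSO and 96.6 and 63.1 CPM with PA, a log2 fold change of -1.01 ± 0.22 (edgeR adjusted p = 0.0116). miR-3529-3p, the entry for its reverse complement, was far more abundant, at 2446 and 2572 CPM with DMSO and 1547 and 911 CPM with PA (-1.03 ± 0.20, adjusted p = 0.00617). The DMSO libraries nearly coincided and PA-B was again the lowest. The fold changes lay within each other's SE, and since the letters of the sequences printed above are complementary at every position these are uncertain as separate falls. miR-7-1-3p, the other arm of a miR-7 hairpin, was at 166 and 90.6 CPM with DMSO and 81.0 and 80.7 CPM with PA and did not pass (-0.67 ± 0.39, adjusted p = 0.35). Both calls were lost when DMSO-A (adjusted p 0.056 and 0.073), DMSO-B (0.0583 and 0.0835) or PA-B (0.06 and 0.0887) was dropped, with log2 fold changes of -0.74 and -0.69 in the last case.

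Of 59 tested miRNAs listed for the imprinted 14q32 cluster, expressed from the maternal chromosome with the non-coding RNAs MEG3 and MEG8, 3 fell and 0 rose, against 2.35% and 4.32% of all entries. The median log2 fold change was -0.25, 46 of 59 values were negative, where 409 of all 810 were, and 28 members were lower in both PA libraries, as were 26.5% of all entries. miR-154-3p was at 581 and 557 CPM with DMSO and 309.9 and 267 CPM with PA (-0.98 ± 0.21, edgeR adjusted p = 0.0091). miR-376a-3p went from 128 and 103 to 73.4 and 61.4 CPM (-0.77 ± 0.21, adjusted p = 0.0388) and miR-376b-3p from 57.8 and 40.3 to 22.9 and 21.0 CPM (-1.15 ± 0.31, adjusted p = 0.0321). The 2 share a seed and differ at the 3′ end, as the printed sequences show. In each of the 3 the groups did not overlap. Abundant members did not pass: miR-369-3p was at 1699.7 and 1791 CPM against 1202 and 1137 CPM (-0.58 ± 0.17, adjusted p = 0.0518), and miR-409-5p, with the highest log2 fold change of the list, was at 940.1 and 922 CPM against 1678 and 1337 CPM (0.70 ± 0.21, adjusted p = 0.0561).

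miR-380-5p, from the same region but outside the list, moved the other way and passed, from 147.6 and 99.2 to 200.1 and 395 CPM (1.26 ± 0.30, adjusted p = 0.019). Its PA libraries did not overlap the DMSO 24 h libraries, but they lay below the 434 and 462 CPM of DMSO 0 h. Its other arm, miR-380-3p, was at 27.9 and 36.8 CPM with DMSO and 21.7 and 26.9 CPM with PA and did not pass (-0.43, adjusted p = 0.515). The DMSO 24 h level of miR-154-3p was itself above that of the earlier DMSO groups (0.70, adjusted p = 0.02), as was that of miR-376b-3p (0.90, 0.0409), and that of miR-380-5p was below them (-1.21, 0.0146). Against the mean of the 4 DMSO groups none of the 4 passed, at -0.45 for miR-154-3p (adjusted p = 0.113), -0.39 for miR-376a-3p (0.19), -0.48 for miR-376b-3p (0.29) and 0.35 for miR-380-5p (0.397). None of the 3 falls passed when DMSO-A, DMSO-B or PA-B was dropped (adjusted p 0.0583 to 0.275), and 2 passed when PA-A was. The rise of miR-380-5p was lost in the same 3 fits, with adjusted p up to 0.212 and log2 fold changes down to 0.70.

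The remaining falls came from separate loci. miR-339-5p, from an intron of C7orf50, went from 1639 and 1476 to 919 and 1040.1 CPM (-0.67 ± 0.18, edgeR adjusted p = 0.0321), while its other arm, miR-339-3p, was at 200.1 and 214 CPM against 208 and 191 CPM (-0.05, adjusted p = 0.9). The unnamed entry chr19_36629 went from 1241 and 998 to 646 and 714 CPM (-0.72 ± 0.18, adjusted p = 0.0206). It was the only unnamed entry among the falls, and it lay below all 8 DMSO libraries. miR-4455, with a mature sequence of 17 bases and a GU-rich 3′ end, went from 98.0 and 117 to 44.9 and 59.7 CPM (-1.06 ± 0.24, adjusted p = 0.0134).

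Minor arms made up further falls. miR-191-3p was at 31.2 and 46.8 CPM with DMSO and 20.4 and 15.1 CPM with PA (-1.10 ± 0.30, adjusted p = 0.035), while the abundant miR-191-5p was at 15174 and 19370.2 CPM against 22287 and 19984 CPM and did not pass (0.29, adjusted p = 0.538). miR-196a-3p, the minor arm of a miRNA that represses HOX genes, was at 54.9 and 39.9 CPM against 18.0 and 26.9 CPM (-1.11 ± 0.28, adjusted p = 0.0247), and miR-196a-5p at 2129 and 2108 CPM against 2106 and 1649 CPM did not pass (-0.17, adjusted p = 0.605). miR-4521, listed here among the entries that overlap other small RNAs, had the largest fall that passed, from 45.1 and 39.9 to 12.0 and 18.5 CPM (-1.53 ± 0.35, adjusted p = 0.0155). miR-579-3p, from an intron of ZFR, went from 39.4 and 32.5 to 18.4 and 5.04 CPM (-1.48 ± 0.41, adjusted p = 0.0365), and PA-B held 6 counts of it. The value was -2.90 with PA-A dropped and -0.95 with PA-B dropped (adjusted p = 0.208). miR-6715b-3p went from 43.0 and 29.03 to 12.4 and 18.5 CPM (-1.27 ± 0.35, adjusted p = 0.0351). Of these 8 falls, 0 passed in edgeR when DMSO-A (adjusted p 0.056 to 0.261) or DMSO-B (0.0583 to 0.326) was dropped, 3 when PA-A was and 3 when PA-B was.

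Of 9 tested members of the miR-99/100 and miR-125 families 3 rose, all of the miR-99/100 family, and 0 fell, against 4.32% and 2.35% of all entries. miR-100-5p, the second most abundant entry, was at 92439 and 93829 CPM in DMSO-A and DMSO-B and 146118 and 128775 CPM in PA-A and PA-B. In unscaled shares this was 9.79% and 9.71% of all counts with DMSO and 12.9% and 12.4% with PA. The groups did not overlap on either scale, and the log2 fold change of CPM was 0.56 ± 0.15 (edgeR adjusted p = 0.0321). miR-99b-5p went from 9843 and 10412 to 16169 and 14478 CPM (0.60 ± 0.16, adjusted p = 0.035) and miR-99a-5p from 154 and 138 to 281 and 288 CPM (0.96 ± 0.27, adjusted p = 0.044). The 3 have the same seed, as printed above, and come from 3 chromosomes. The printed miR-99a-5p and miR-100-5p are nearly identical. miR-99a-5p had 375 and 319 counts with DMSO and 700 and 343 with PA. miR-100-5p had 225478 and 216550 with DMSO and 364448 and 153159 with PA. Whether miR-100-5p reads were counted as miR-99a-5p was not tested, so these are uncertain as separate rises.

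The miRNAs made from the same transcripts did not pass. miR-125b-5p, from MIR100HG and MIR99AHG, was at 12113 and 14273 CPM with DMSO and 14895 and 13961 CPM with PA (0.13 ± 0.22, adjusted p = 0.803), and its groups overlapped. miR-125a-5p, in the SPACA6 intron of miR-99b, was at 4312 and 4973 CPM against 5959.8 and 5622 CPM (0.32 ± 0.28, adjusted p = 0.55), and let-7e-5p, also there, at 751 and 757 CPM against 726 and 742 CPM (-0.04, adjusted p = 0.92). The minor arms miR-100-3p (-0.15) and miR-99b-3p (-0.01) did not pass either, and their groups overlapped. None of the 3 rises passed when DMSO-A, DMSO-B or PA-A was dropped (adjusted p 0.102 to 0.262), and 1 passed when PA-B was. Against the mean of the 4 DMSO groups miR-99b-5p passed (0.57, adjusted p = 0.0071), and miR-100-5p (0.37, 0.0548) and miR-99a-5p (0.20, 0.648) did not.

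Of the 11 tested members of the miR-23/27/24 clusters, 2 rose and 0 fell, against 4.32% and 2.35% of all entries. The median log2 fold change was 0.34, and 8 were higher in both PA libraries than in both DMSO libraries, as were 25.6% of all entries. miR-27a-3p, the third most abundant entry, was at 69097 and 66933 CPM with DMSO and 104997 and 93527 CPM with PA (0.55 ± 0.14, edgeR adjusted p = 0.0246). Its unscaled shares were 7.32% and 6.93% of all counts with DMSO and 9.30% and 8.99% with PA. The minor arm miR-27a-5p went from 313 and 329 to 543 and 470.0 CPM (0.66 ± 0.15, adjusted p = 0.0161). Both arms lay above all 8 DMSO libraries of the series.

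miR-23a-3p and miR-24-3p, cut from the same chromosome 19 transcript as miR-27a, were higher in both PA libraries and did not pass: miR-23a-3p was at 17643 and 15778 CPM against 23118 and 17915 CPM (0.30, adjusted p = 0.276). miR-24-3p, which is also made on chromosome 9, was at 21113 and 23426 CPM against 26977 and 29211 CPM (0.34, adjusted p = 0.146). miR-27b-3p, with the seed of miR-27a-3p, was at 37872 and 37382 CPM against 53457 and 47458 CPM (0.42 ± 0.15, adjusted p = 0.0976). Its groups did not overlap either. Both calls for miR-27a were lost when DMSO-A (adjusted p 0.164 and 0.166), DMSO-B (0.0955 and 0.191) or PA-A (0.129 and 0.164) was dropped, and both passed when PA-B was.

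The abundant rises depended on scaling. With library totals alone, miR-100-5p (0.38, adjusted p = 0.0946), miR-27a-3p (0.36, 0.0749), miR-99b-5p (0.41, 0.111), miR-99a-5p (0.78, 0.0946), miR-27a-5p (0.47, 0.0558) and miR-221-5p (0.44, 0.122) stayed positive but missed the threshold in edgeR. The median of the miR-99/100 and miR-125 list turned from 0.13 to -0.05 under that scaling, while that of the miR-17-92 list went from -0.70 to -0.88. miR-21-5p, the most abundant entry and a repressor of PDCD4, was at 163907 and 174552 CPM with DMSO and 164523 and 158776 CPM with PA (-0.07, adjusted p = 0.852), with unscaled shares of 17.4% and 18.1% against 14.6% and 15.3%. Its groups overlapped in CPM and not in unscaled shares.

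miR-221-5p, the minor arm of a miRNA that represses the cell cycle inhibitor CDKN1B, went from 532 and 549 to 900.5 and 767 CPM (0.63 ± 0.18, edgeR adjusted p = 0.0486). The major arm miR-221-3p was at 11333 and 15522 CPM against 13197 and 13153 CPM (-0.03, adjusted p = 0.962), with overlapping groups, and miR-222-3p was at 1341 and 1361 CPM against 999 and 1221 CPM (-0.28, adjusted p = 0.501). The rise of miR-221-5p passed in 2 of the 14 fits that left out 1 library, and its log2 fold change lay between 0.41 and 0.75 in them. Across the 162 hairpin names with both arms tested, 1 arm passed in 14 and both arms in 2, miR-27a and miR-1271, the latter named after its values were seen. In 9 of the 14 the other arm had the same sign and in 5 the opposite sign, where 87 of all 162 had the same sign in both arms. The ratio of the 5p to the 3p arm, tested with limma, passed for 0 of the 162 (0%), with 28 at an unadjusted p under 0.05 and a lowest adjusted p of 0.0862.

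**Figure D3:**
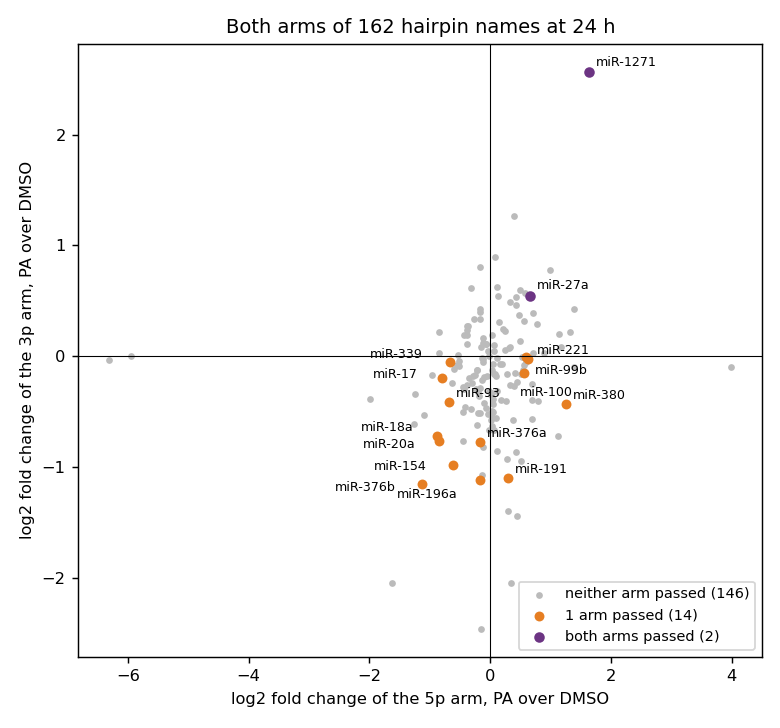
Each point is 1 of 162 hairpin names, with the log2 fold change of its 5p arm on the x axis and of its 3p arm on the y axis. Orange points had 1 arm that passed and purple points had both. miR-27a and miR-1271 lie at the upper right, and the orange points of the miR-17-92 members lie at the lower left.

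The largest change of all was that of the unnamed entry chr8_19924. It had 61 and 49 counts in DMSO-A and DMSO-B and 17964 and 12859 in PA-A and PA-B, which is 25.01 and 21.2 CPM against 7202 and 10812 CPM. All 8 DMSO libraries lay at or below 122 CPM, and the entry made up 0.638% and 1.04% of all counts in PA-A and PA-B. The log2 fold change was 8.60 ± 0.43 (edgeR adjusted p = 2.82e-09), and its lowest value when 1 library was left out was 8.29. The files pair the entry with no gene name or sequence. Other unnamed entries rose by less: chr13_28163 went from 54.9 and 35.5 to 306 and 348 CPM (2.85 ± 0.26, adjusted p = 4.06e-06), above all 8 DMSO libraries. chr4_10821 and KI270790.1_41873 had the same counts in every library, 206 and 164 CPM against 343 and 627 CPM (1.38 ± 0.26, adjusted p = 0.00483), and stand for 1 measurement. This call was lost when DMSO-B (1.23, adjusted p = 0.0749) or PA-B (0.90, 0.0598) was dropped. Their PA 24 h levels did not exceed those of DMSO 0 h, at 453 and 688 CPM, in both libraries.

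miR-7704 had the largest rise of a named miRNA above 100 CPM. It was at 4.92 and 6.93 CPM with DMSO and 185 and 431 CPM with PA (5.68 ± 0.55, edgeR adjusted p = 9.59e-06). Both PA libraries lay above every DMSO library, and PA-B lay far above PA-A. Because its sequence lies within an exon of HOXD1, reads from that transcript and from the miRNA cannot be told apart in these counts. None of the other 9 tested miRNAs of the HOX clusters passed as higher: miR-10a-5p, an abundant member, was at 24849 and 27271 CPM against 46706 and 30068 CPM (0.56 ± 0.18, adjusted p = 0.0816), and miR-10b-5p at 271 and 253 CPM against 483 and 292 CPM (0.57 ± 0.23, adjusted p = 0.154).

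Of the 12 tested miRNAs with mature sequences of at most 17 bases, 3 rose and 1 fell, where 20 rose and 18 fell among all 597 with a sequence. miR-3182, also listed among the entries that overlap other small RNAs, went from 74.2 and 77.6 to 191 and 371 CPM (1.88 ± 0.26, adjusted p = 0.000451). miR-4310 went from 31.2 and 34.2 to 103 and 242 CPM (2.38 ± 0.37, adjusted p = 0.00171), but DMSO 0 h A and B were at 114 and 208 CPM, so PA-A lay within the range of the controls over time and PA-B above it. miR-4443 went from 180.8 and 177 to 328 and 636 CPM (1.42 ± 0.35, adjusted p = 0.0203), with 253 and 384 CPM in DMSO 0 h. The call for miR-4443 was lost when DMSO-A (adjusted p = 0.192), DMSO-B (0.18) or PA-B (0.208) was dropped, with a log2 fold change of 0.88 in the last case. In each of these 3, as in miR-7704, PA-B was the higher PA library. Of the 35 rises, 26 had PA-B above PA-A, and of the 19 falls, 7 did. PA-B had the lower depth. What part the difference between these libraries has in the calls was not tested.

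miR-562, in an intron of DIS3L2, and miR-372-5p, an arm of a miRNA of embryonic stem cells, had 0 counts in both DMSO 24 h libraries. The other arm, miR-372-3p, had 2 counts in DMSO-A and 0 in DMSO-B, PA-A and PA-B. The other listed miRNAs of that cluster had at most 4 counts in any of these libraries. miR-562 was at 8.42 and 8.41 CPM in PA-A and PA-B, with an exact counting interval for the ratio to DMSO that starts at 10.2-fold (edgeR adjusted p = 0.0142). miR-372-5p was at 4.01 and 8.41 CPM, with an interval that starts at 6.36-fold (adjusted p = 0.0091). These 95% intervals are from counts pooled over the 2 libraries of each group, so they leave out the spread between libraries. They cover counting error only, and PCR copies of a molecule are counted as separate reads. In DMSO at 0 h miR-562 was at 10.53 and 9.04 CPM and miR-372-5p at 6.81 and 3.29 CPM, so the libraries at 0 were those of the 24 h control alone for miR-372-5p, which had counts in the other 12. miR-6069 had 2 counts with DMSO and 52 with PA, a ratio of 33.5 (exact 95% counting interval 8.82 to 284; adjusted p = 0.0129). miR-4709-5p, in an exon of the cholesterol transport gene NPC2, had 3 counts and 51, a ratio of 21.9 (7.09 to 109.7; adjusted p = 0.0091). miR-6750-5p went from 1.23 and 1.73 to 13.2 and 22.7 CPM (3.50 ± 0.69, adjusted p = 0.00617), while DMSO 12 h was at 37.5 and 39.1 CPM. Of the unnamed entries among the 10 largest rises, chr6_15979 went from 0 and 1.73 to 15.6 and 42.9 CPM (4.96, adjusted p = 0.00617) and chr17_33942 from 6.15 and 3.03 to 38.1 and 31.1 CPM (2.90, adjusted p = 0.0129). For miR-6069 and chr17_33942 the PA libraries did not both lie above all 8 DMSO libraries. Their PA effect was negative at an earlier time. The difference from 3 h was 11.17 for miR-6069, fitted against 0 counts, and that from 12 h was 5.37 for chr17_33942. The calls for miR-562, miR-372-5p, miR-6069, miR-4709-5p, miR-6750-5p and chr17_33942 were lost when DMSO-A or DMSO-B was dropped (adjusted p up to 0.165). Those of miR-6069 (0.0662) and miR-4709-5p (0.0685) were also lost with PA-B dropped, that of chr17_33942 (0.0534) with PA-A dropped and that of chr6_15979 (0.0739) with DMSO-A dropped.

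Because the DMSO 24 h libraries were the reference of every call, they were set against the other DMSO times. In the same edgeR fit 31 entries of DMSO 24 h differed from the mean of DMSO 0, 3 and 12 h (3.83%), 11 higher (1.36%) and 20 lower (2.47%). Of the 35 rises, 13 had a DMSO 24 h level that was called lower than the other DMSO times, and in 22 it was the lowest of the 4 DMSO means. Of the 19 falls, 2 had one that was called higher, and in 11 it was the highest mean. These comparisons share the DMSO 24 h libraries, so a call and an extreme DMSO 24 h level are not independent. How often the DMSO 24 h mean was the lowest or highest over all 810 entries was not counted. Both PA 24 h libraries lay above all 8 DMSO libraries in 21 of the 35 rises, where 61 of the 810 entries did (7.53%), and below all 8 in 8 of the 19 falls, where 38 of 810 did (4.69%). The 8 were miR-92a-3p, miR-18a-5p, miR-106a-5p, miR-4455, miR-191-3p, miR-6715b-3p, miR-4521 and chr19_36629. miR-100-5p shows what the control adds: its PA 24 h libraries were above DMSO 24 h, but DMSO 12 h A and B were at 130736 and 126019 CPM, above PA-B only in A. miR-99a-5p was at 949 and 432 CPM in DMSO 12 h, against 281 and 288 CPM in PA 24 h. Set against the mean of the 4 DMSO groups, 68 entries passed (8.4%), 49 higher (6.05%) and 19 lower (2.35%), and 37 of the 54 were among them.

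**Figure D4:**
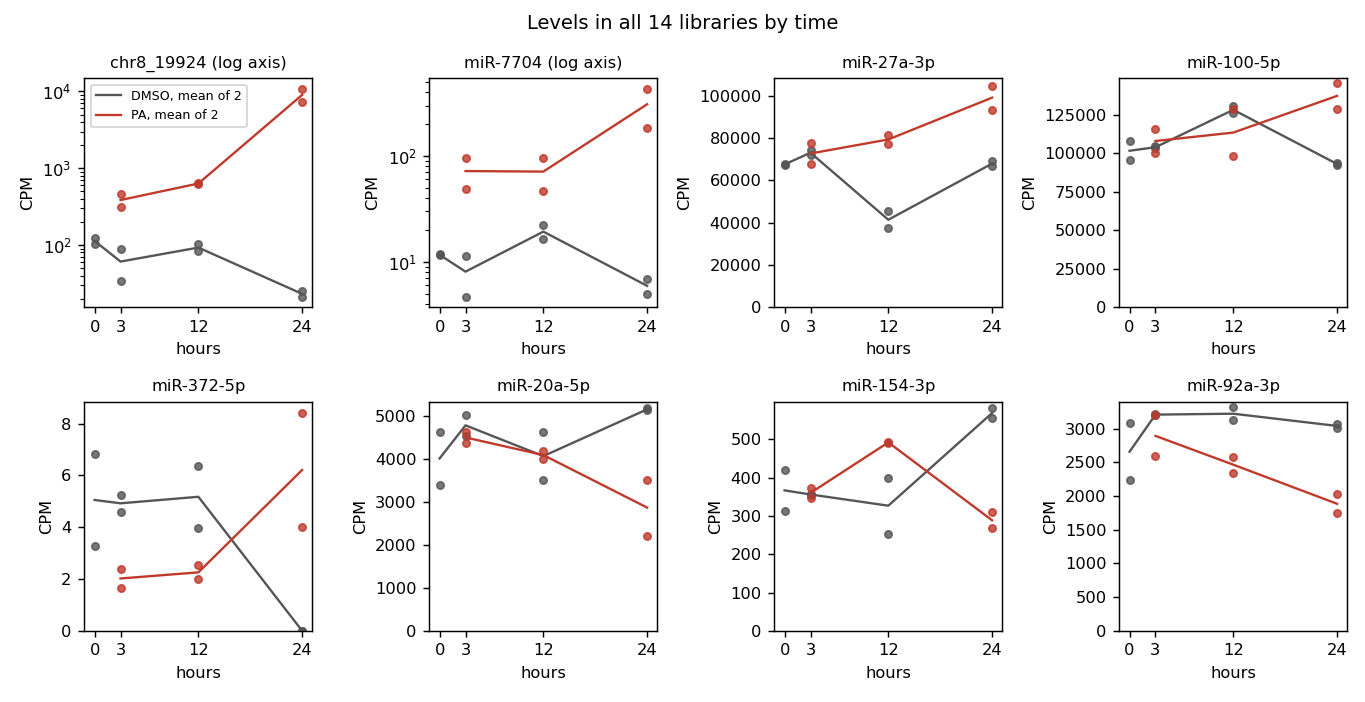
CPM of 8 entries in all 14 libraries at 0, 3, 12 and 24 h, with grey points for DMSO libraries, red points for PA libraries and lines through the group means. The y axes of chr8_19924 and miR-7704 are log axes and the others start at 0. miR-372-5p was at 0 in both DMSO 24 h libraries, and the PA 24 h libraries of miR-92a-3p and miR-27a-3p lie outside the range of all DMSO libraries.

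The PA effect at 24 h was tested against the effects at 3 h and 12 h, each taken against DMSO of its own time. Taken alone, the effect at 3 h passed for 2 entries, both higher (0.247%), and that at 12 h for 90 (11.1%), 51 higher (6.3%) and 39 lower (4.81%). Against 3 h, 10 entries differed (1.23%), and all 10 were rises at 24 h. They included chr8_19924, whose effect was 2.63 at 3 h and 8.60 at 24 h (difference 5.97 ± 0.49, edgeR adjusted p = 3.15e-06), chr13_28163 (0.02 and 2.85, adjusted p = 0.000252) and miR-3182 (0.12 and 1.88, adjusted p = 0.0249). miR-7704 already rose by 3.07 at 3 h, and its difference did not pass (2.61 ± 0.77, adjusted p = 0.131). The falls were near 0 at 3 h for the miR-17-92 members, at -0.25 to -0.07 for the 6 that passed at 24 h, but the difference from 24 h did not pass for any of them (for example miR-18a-5p, -0.80 ± 0.26, adjusted p = 0.199). Against 12 h, 70 entries differed (8.64%), 41 upward (5.06%) and 29 downward (3.58%), and they included 22 of the 35 rises and 6 of the 19 falls. Among them miR-17-5p was at 0.15 at 12 h and -0.80 at 24 h (adjusted p = 0.0321) and miR-154-3p at 0.59 and -0.98 (adjusted p = 0.00457). miR-27a-3p was at 0.94 at 12 h and 0.55 at 24 h, which did not differ beyond the error (adjusted p = 0.217). Of the 35 rises, 4 were called higher with PA at 12 h too and 5 were called lower, against 6.3% and 4.81% of all entries. The DMSO 12 h libraries had the lowest correlation between A and B of the 7 groups, 0.925, and without its library A the count against 12 h was 115. That count was 27 with DMSO-A dropped, 40 with DMSO-B, 128 with PA-A, 31 with PA-B and 30 without library A of PA 12 h. The 10 against 3 h became 2 to 4 when any 1 of DMSO-A, DMSO-B, PA-B and the 4 libraries of 3 h was dropped, and 20 with PA-A dropped.

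Of the lists with tested members, 21 had no member that passed in edgeR. They held 100 tested miRNAs, with 13 at an unadjusted p under 0.05, 3 that passed with DESeq2 and 2 with limma on the deposited TPM. Among the NF-kB and inflammation-induced miRNAs, miR-146a-5p, a feedback repressor of IRAK1 and TRAF6, was at 46303 and 41188 CPM with DMSO and 38103 and 39712 CPM with PA (-0.17 ± 0.14, adjusted p = 0.538). miR-155-5p was at 17.2 and 27.7 CPM against 12.0 and 9.25 CPM (-1.04 ± 0.43, adjusted p = 0.188), with no overlap and few counts. The p53-responsive miR-34a-5p was at 146 and 97.1 CPM against 161 and 159.8 CPM (0.40 ± 0.24, adjusted p = 0.382) and miR-192-5p at 356 and 351 CPM against 482 and 480.1 CPM (0.44 ± 0.15, adjusted p = 0.094). The p53 list's median of -0.07 was near the -0.01 of all entries. The 9 let-7 and miR-98 members, which repress LIN28 and RAS messages, had a median of 0.04, and the 7 members of the miR-15/16 family, which restrain the cell cycle, a median of -0.36 with 0 of them at an unadjusted p under 0.05.

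The values closest to the threshold in these lists were those of miR-183-5p, miR-501-3p and miR-30d-5p. miR-183-5p was at 1919 and 1656 CPM with DMSO and 3539 and 2570.3 CPM with PA (0.77 ± 0.22, adjusted p = 0.0506), and its groups did not overlap. miR-96-5p was at 5209 and 4293 CPM against 8951 and 4496 CPM (0.50 ± 0.30, adjusted p = 0.357), with overlap, and miR-182-5p at 1381 and 1314 CPM against 1895 and 1393 CPM (0.29, adjusted p = 0.357). PA-A was the highest library for all 3. In the cluster of CLCN5, miR-501-3p was at 554 and 459.7 CPM against 1081 and 688 CPM (0.81 ± 0.25, adjusted p = 0.0606) and miR-500a-3p at 302 and 278 CPM against 511 and 381 CPM (0.62 ± 0.21, adjusted p = 0.0877). The list median was 0.11, and 5 of 13 members were higher in both PA libraries, as were 25.6% of all entries. The list of miRNAs that MYC represses, set here beside the MYC-driven miR-17-92 clusters, had 0 of 20 members that passed in edgeR (2 at an unadjusted p under 0.05, 1 with DESeq2, 1 with limma) and a median of 0.03. Its lowest adjusted p was that of miR-30d-5p, at 1355 and 1409 CPM against 1909.6 and 1802 CPM (0.43 ± 0.14, adjusted p = 0.0848).

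**Figure D5:**
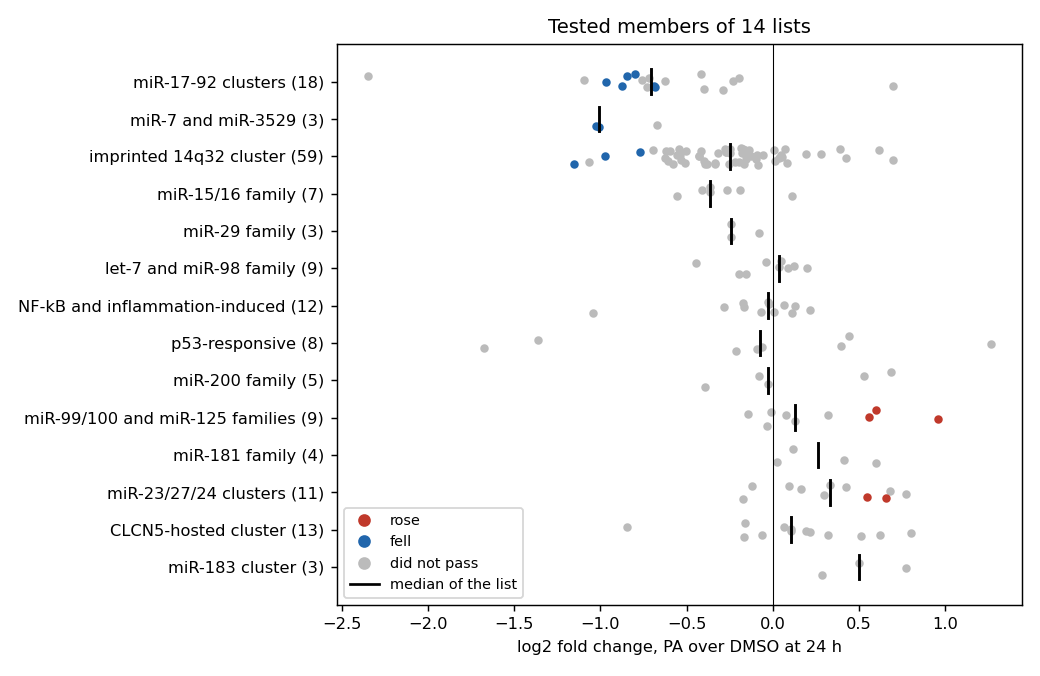
Log2 fold change of PA over DMSO at 24 h for the tested members of 14 lists, with 1 point per miRNA and a black bar at the median of the list. The numbers of members are in brackets. The miR-17-92, miR-7 and 14q32 lists hold the blue points that fell, and the miR-99/100 and miR-23/27/24 lists the red points that rose.

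Because miRNAs with one seed address the same sites, the counts of all entries with one seed were also summed and tested, using the 2059 of 2346 named miRNAs with a RefSeq sequence. Of 514 seed groups tested, 28 passed (5.45%), 15 higher and 13 lower. Of these, 5 held at least 2 miRNAs that were tested alone. The AAAGUGC seed of miR-17-5p, miR-20a-5p, miR-93-5p, miR-106a-5p and miR-106b-5p was at 14189 and 14045 CPM with DMSO and 10066 and 7061 CPM with PA (-0.72 ± 0.19, edgeR adjusted p = 0.0265). The AUCAUAC seed of miR-154-3p and miR-487a-3p went from 678 and 627 to 379.9 and 313 CPM (-0.91 ± 0.19, adjusted p = 0.011), and the UCAUAGA seed of miR-376a-3p and miR-376b-3p from 191 and 142 to 98.9 and 79.0 CPM (-0.89 ± 0.20, adjusted p = 0.0132). The CAGCAUU seed, mostly miR-4310, rose by 2.27 ± 0.35 (adjusted p = 0.00161), and the UCAUUUG seed of miR-579-3p and miR-664b-3p had -1.27 ± 0.34 (adjusted p = 0.0302). The ACCCGUA seed of miR-99a-5p, miR-99b-5p and miR-100-5p (0.55, adjusted p = 0.0651) and the UCACAGU seed of miR-27a-3p and miR-27b-3p (0.48, adjusted p = 0.0783) did not pass as groups. The count of 28 fell to 2 with DMSO-A dropped, 4 with DMSO-B and 14 with PA-B.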

How the data were processed

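Small RNA libraries of PANC-1 cells were compared at 24 h, 2 with PA against 2 with DMSO, grouped by the submitters' labels. The deposited table gives, per entry, read counts made by the authors and TPM values; the submitters' processing notes name bcl2fastq, Bowtie, edgeR and the build GRCh38, and versions, settings and the counter are not given in the sources used here. The TPM totals implied library sizes within 0.006% of the count totals, and all 28 value columns were mapped, with 0 left out. Library totals ran from 1032391 to 3111014 counts, which limits entries of few counts.

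All 14 libraries entered one edgeR 4.0.16 quasi-likelihood fit (R 4.3.3, robust, TMM, filterByExpr with a minimum count of 10 and total of 15), with contrasts between groups and Benjamini-Hochberg adjustment over all 810 entries at 0.05. The 7 groups shared 1 estimate of the spread per entry, and the common biological coefficient of variation over the entries was 0.203. CPM use TMM-scaled totals and SE is that of the log2 fold change. Seed groups were summed counts in a separate edgeR fit of the same design. That fit had its own filter, TMM scaling and spread estimates, with adjustment over the 514 groups. Seed group CPM and adjusted p are therefore not on the same scale as those of single entries. Arm ratios were log2 CPM differences tested with limma 3.58.1. Alternatives were other scalings, no filter, DESeq2 1.42.0, limma on log2(TPM + 1), a replicate block, other sets of libraries and leaving out each library. Sequences and mature positions are from RefSeq GRCh38.p14 and host genes from GENCODE 29, the build the notes name.

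Entries were named if they passed and were among the 10 largest rises or falls with groups that did not overlap, reached 100 CPM on average at 24 h, or belonged to a list; members that did not pass, other arms and seed mates are given as values. The members and lists were chosen with earlier results of these data known.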

Additional observations from a re-analysis of the deposited data

Results flagged for a closer look

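The PA effect of these entries at 24 h differed from that at an earlier time, by the test of the difference itself in the same edgeR fit (adjusted p under 0.05); each value is the log2 effect at 24 h minus that at the earlier time. Against 3 h the 10 entries were chr8_19924 (5.97), miR-372-5p (7.84), miR-6069 (11.17), miR-6750-5p (4.48), chr17_33942 (4.24), chr13_28163 (2.83), chr1_2271 (2.13), miR-4310 (2.36), miR-549a (2.70) and miR-3182 (1.76). The values of miR-6069 and miR-372-5p rest on groups with 0 counts and are fitted values, not sizes.

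Against 12 h, 22 of the called rises had a larger value at 24 h. They were chr8_19924 (5.82), miR-562 (8.72), miR-372-5p (7.75), miR-7704 (3.82), chr6_15979 (4.66), miR-4709-5p (4.56), miR-6750-5p (5.28), chr17_33942 (5.37), chr13_28163 (1.91), chr1_2271 (3.38), chr1_339 (2.85), miR-1271-3p (2.76), miR-4310 (2.35), miR-4720-3p (3.53), chr16_32004 (2.54), miR-549a (2.36), miR-3182 (1.54), KI270790.1_41873 (2.43), chr4_10821 (2.43), miR-380-5p (1.89), miR-99a-5p (2.74) and miR-100-5p (0.74). The values of miR-562 and miR-372-5p are again fitted against 0 counts, and chr4_10821 and KI270790.1_41873 stand for the same measurement. Of all 35 rises, 4 were also called higher with PA at 12 h and 5 were called lower there. A difference from 12 h can thus hold an opposite effect at 12 h and need not be a rise that grew with time.

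Among the falls, 6 were lower at 24 h than at 12 h, namely miR-17-5p (-0.96), miR-339-5p (-1.29), miR-154-3p (-1.56), miR-18a-5p (-1.12), miR-196a-3p (-1.79) and miR-579-3p (-2.31). The remaining falls did not pass in either test of time.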

How the results depend on the processing

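Of the 54 entries that passed, 7 passed in all 14 fits that left out 1 library and in every other alternative that gave them a value (26 settings in all), and 0 changed direction in any of these; the 7 include chr8_19924, miR-7704, chr13_28163, miR-4310 and miR-3182. The count at 24 h was 54 and ranged from 11 (without DMSO 24 h A) to 77 (without DMSO 12 h A). The other ranges over fits without 1 library were 2 to 20 for the difference from 3 h (10 with all libraries), 27 to 128 for that from 12 h (70) and 2 to 42 for seed groups (28). With library totals 50 seed groups passed, with only the 4 libraries of 24 h 14, and without both DMSO 12 h libraries 46. The difference from 3 h gave 21 entries with no filter and 17 with DESeq2. On the deposited TPM, limma called 25 higher and 45 lower, and the 4 libraries of 24 h alone gave 32 higher and 7 lower. With the letters A and B as a replicate block, 50 entries passed at 24 h, 9 and 68 in the differences from 3 h and 12 h, and 28 seed groups. The A minus B differences of DMSO 24 h and PA 24 h correlated at -0.02 over the entries (-0.17 to 0.11 over the 21 pairs of groups). These values show no clear shift shared by the letters. They cannot tell whether libraries of the same letter were handled together. The cause of these shifts was not tested, and the fits that leave libraries out also hold fewer of them. Of the 298 entries under 10 CPM, 5 passed.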

Other observations

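Both arms of 1 scarce hairpin rose, and it was singled out after its values were seen: miR-1271-5p was at 13.9 and 20.8 CPM with DMSO and 46.9 and 62.2 CPM with PA (1.64 ± 0.30, edgeR adjusted p = 0.00424), and miR-1271-3p at 5.33 and 8.23 CPM and 24.1 and 58.9 CPM (2.57 ± 0.45, adjusted p = 0.00408). The PA libraries of both arms lay above all 8 DMSO libraries. Neither call held with DMSO-A dropped, where the log2 fold changes were 1.38 for miR-1271-5p and 2.28 for miR-1271-3p. The median GC content of the mature sequence was 52.7% in the 20 risen miRNAs with a sequence, 43.5% in the 18 that fell and 47.6% in all 597 tested.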
